A study of Mus musculus with 19 samples.

Results

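The 8 astrocyte libraries compared here came from mice that carried either a short hairpin RNA against Xbp1 (shXbp1, 4 libraries) or a scrambled hairpin with no stated target (shScrmbl, 4 libraries). They were chosen by their labelled cell type from 19 libraries of the series, which also holds microglia and monocytes, and all genes of the astrocyte table were taken: 6376, of which 6366 had a signal of at least 1 in 4 or more of the 8 libraries and were tested. Every mouse was a wild type C57Bl/6 female at P85 (postnatal day 85) with experimental autoimmune encephalomyelitis (EAE), an inflammatory disease of the central nervous system, which had been induced by immunization with MOG35-55, a myelin peptide, at 25 µg in complete Freund's adjuvant. Before that, each mouse had received a lentivirus in the brain whose Gfap promoter, active in astrocytes, drives GFP and the hairpin, so the shScrmbl mice carried the virus, GFP and the disease too. Each library came from the central nervous system of 1 mouse, and astrocytes were isolated by flow cytometry with antibodies that the labels do not name. The labels also do not say whether GFP-positive cells were selected, how many cells carried the virus, or whether libraries with the same number share anything.

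XBP1 acts as a transcription factor in the unfolded protein response. When unfolded proteins collect in the endoplasmic reticulum (ER), the sensor IRE1 cuts the Xbp1 transcript, the ends are rejoined, and the spliced form encodes the active factor. With ATF6 it drives genes for ER chaperones, for the disposal of misfolded ER proteins and for secretory transport, often through the ER stress response element, a promoter motif that pairs a site for NF-Y with a site for ATF6 or XBP1. The comparison asks which transcripts of astrocytes differed between mice with and without the Xbp1 hairpin during EAE.

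Values are the authors' normalized signal, in which every column is a whole number of counts times a constant. The libraries held 32842 to 302003 counts with shScrmbl and 53228 to 221367 with shXbp1, and 1 count was worth a signal of 4.22 to 27.6. The limit that a count of 0 sets (3 counts, counting error only) was thus a signal of 12.7 in the deepest library and 82.7 in the shallowest. Between 30 and 1605 genes stood at 0 in a shScrmbl library and between 18 and 768 in a shXbp1 library. Differences are shXbp1 minus shScrmbl on the log2(signal + 30) scale with limma unless edgeR, which works on the recovered counts, is named. The scale shrinks the change of low genes, and standard errors and p-values measure the spread between these 8 libraries.

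The label astrocyte held in part. Of 36 listed astrocyte markers 26 were in the table, among them the glutamate transporters Slc1a2 (median signal 135, range 26.6 to 358) and Slc1a3 (134, 40.1 to 165), the glutamine synthetase gene Glul (243, 140 to 373) and the water channel gene Aqp4 (54.1, 20.1 to 156). Gfap, Fgfr3, Slc6a11, Ntsr2, F3, Dio2, Hepacam, Acsbg1, Cbs and Bcan were not among the rows of the table. The table also held 25 of 25 listed microglia markers and 19 of 20 listed choroid plexus markers, so presence in it does not set astrocytes apart. Ttr, the transthyretin gene that the choroid plexus expresses strongly, had a signal of 126560 to 269930, or 14.2% to 26.7% of all counts, and the 14 measured oligodendrocyte lineage markers summed to 5246 to 13265, near the astrocyte markers (6921 to 11529). Much of the astrocyte sum came from Ttyh1 (1585 to 7139) and Dbi (2115 to 4413). Ttr was also 1.69% to 6.25% of counts in the microglia libraries and 0.343% to 0.945% in the monocyte libraries. The astrocyte libraries thus held RNA of several cell types. Fewer cells of a type, less RNA per cell and RNA from outside the sorted cells cannot be told apart in them. The shScrmbl replicate 2 stood apart: its 25 microglia markers summed to 14034, where the rest of its group had 2503 to 4220 and shXbp1 had 2779 to 4764, its 17 monocyte and macrophage markers to 10741, against 722 to 2343 and 750 to 2868, and the nuclear transcript Malat1 reached 115060, against 34985 to 58439 and 45683 to 65794.

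**Figure D1:**
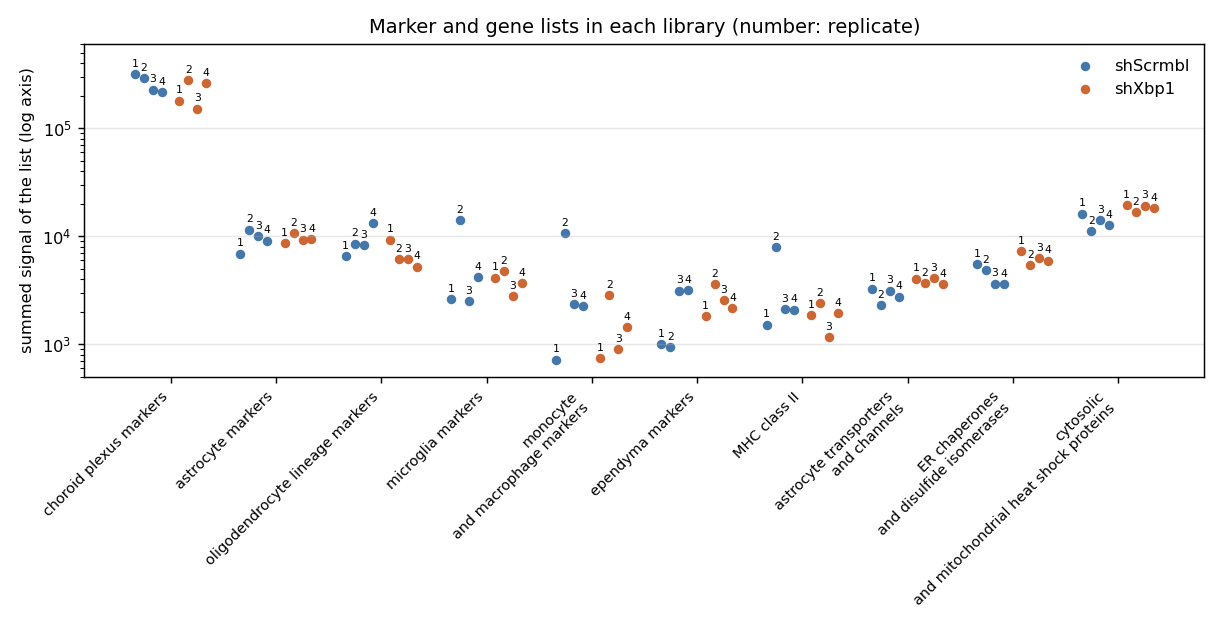
Summed signal of marker lists and of 4 other gene lists in each astrocyte library, on a log axis, with the replicate number at each point (blue shScrmbl, orange shXbp1). In shScrmbl replicate 2 the microglia markers sum to 14034 and the monocyte and macrophage markers to 10741, above all other libraries, while the astrocyte transporters and the heat shock proteins lie higher in all 4 shXbp1 libraries than in any shScrmbl library.

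Xbp1 itself (chromosome 11, 5520659 to 5525893 on GRCm38, plus strand) was counted rarely and did not differ detectably. Its signal was 20.1, 71.7, 79.9 and 27.6 in shScrmbl replicates 1 to 4 and 34.1, 52.9, 31.2 and 79.7 in shXbp1 replicates 1 to 4, from 22 and 28 counts. The groups overlapped throughout. The difference was 0.04 ± 0.42 (SE) with a 95% interval from -0.79 to 0.87, and edgeR gave -0.08. An exact two-sided permutation test over the 8 libraries gave p = 0.914, where 0.0286 was the smallest p possible. The counts were made at the 3′ ends of transcripts, so they measure total Xbp1 and do not tell the spliced from the unspliced form. With so few counts, so wide an interval and an unstated share of cells with the virus, the targeted gene gives no check of the hairpin labels.

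By limma no gene passed an adjusted p of 0.05 (0 of 6366, 0%; smallest adjusted p 0.480), while edgeR's quasi-likelihood test called 4 genes, all lower with shXbp1: Apoc2, Apod, Lyz1 and Lyz2 (0.0628% of genes). With robust dispersions, an alternative chosen after seeing the data, edgeR called Apoc2 alone (0.0157%, adjusted p = 0.0133), and DESeq2 called 0. At an unadjusted p under 0.05 limma found 378 genes (5.94%), 325 higher (5.11%) and 53 lower (0.833%), and edgeR 417 (6.55%), 231 higher (3.63%) and 186 lower (2.92%). Limma after quantile normalization found 223 higher and 187 lower. The excess of higher genes thus changed with the normalization, and the part of library depth in it was not tested. DESeq2 found 131 genes at an unadjusted p under 0.05. Over all genes, limma gave a median difference of 0.13 with 62.1% of genes above 0, and edgeR 0.05 with 53.2%; these are the background for the counts and medians of the gene lists. In 151 genes (2.37%) all shXbp1 libraries lay above all shScrmbl libraries and in 50 (0.785%) all lay below.

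**Figure D2:**
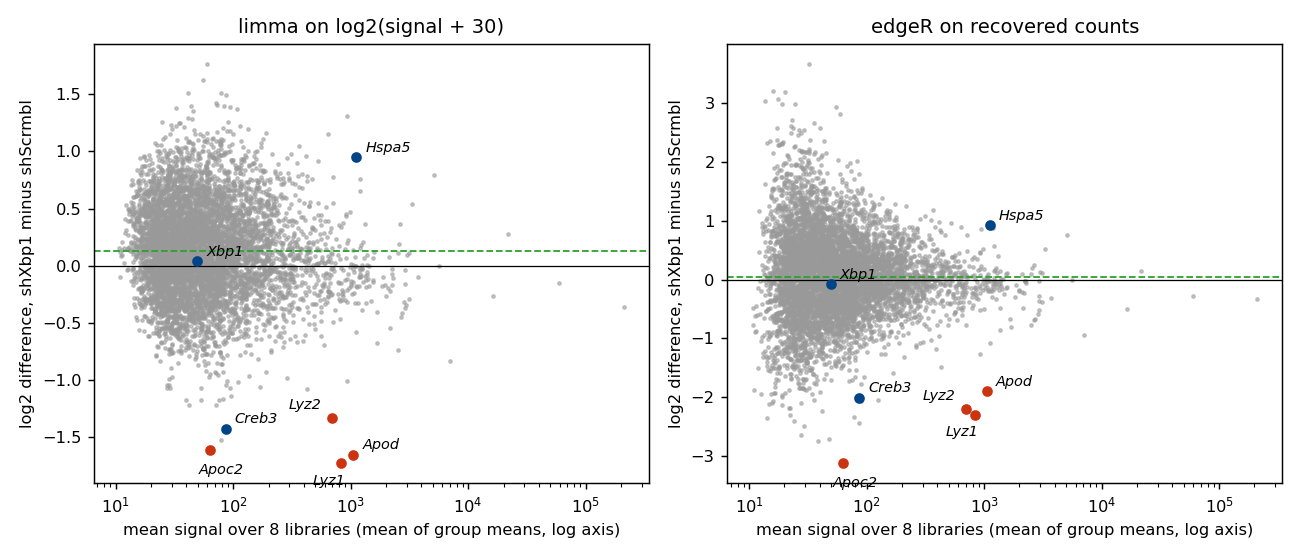
Log2 difference (shXbp1 minus shScrmbl) of 6366 genes against their mean signal on a log axis, by limma on the left and by edgeR on the right, with the median of all genes as a dashed line. The 4 genes that edgeR called are in red (Apoc2, Apod, Lyz1, Lyz2) and lie at differences from -3.11 to -1.89 by edgeR, while Hspa5, Creb3 and Xbp1, in blue, were not called.

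Apoc2 encodes a cofactor of lipoprotein lipase (chromosome 7, 19671579 to 19677941, minus strand; the predicted gene Gm44805 overlaps it on the same strand). Its signal was 100, 186, 79.9 and 82.7 with shScrmbl and 17.1, 14.4, 20.8 and 6.64 with shXbp1, from 55 and 7 counts. Every shXbp1 library lay below every shScrmbl library. The mean was 112 ± 49.8 against 14.7 ± 6.00 (SD, n = 4 and 4), and Apoc2 fell by 3.11 in edgeR (adjusted p = 0.0130), while limma gave -1.62 ± 0.41 (SE, adjusted p = 0.522). Apoc2 was also measured in the other sorted cells, whose tables were normalized separately: the median signal was 320 in microglia (95.8 to 1792) and 950 in monocytes (101 to 2040). Leaving out shScrmbl replicate 2, the library with the most myeloid markers, gave -2.61 in edgeR (adjusted p = 0.751), and the call was also lost without shXbp1 replicate 1, 3 or 4 (adjusted p = 0.109, 0.0954 and 0.166). With a myeloid marker score as covariate limma gave -1.50 for Apoc2.

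Apod, an apolipoprotein of the lipocalin family that oligodendrocytes and astrocytes express, was the other apolipoprotein gene called by edgeR (chromosome 16, 31296192 to 31314808, minus strand). It had 481, 928, 2929 and 2372 with shScrmbl and 239, 707, 364 and 418 with shXbp1. The groups overlapped, since shScrmbl replicate 1 lay below shXbp1 replicate 2, and shScrmbl replicates 3 and 4 were the highest. The edgeR difference was -1.89 (adjusted p = 0.0130) and the limma difference -1.66 ± 0.47 (SE, adjusted p = 0.740). Apod was low in microglia (median 63.1, range 0 to 177) and its difference was as large without the myeloid-rich library (edgeR -2.13, adjusted p = 2.71e-08). Without shScrmbl replicate 3 or 4, or without shXbp1 replicate 1 or 3, the edgeR call was lost (adjusted p = 0.124, 0.123, 0.548 and 0.171). Of the 14 measured oligodendrocyte lineage markers, a list that also holds Apod, 11 were lower and 3 higher (median -0.17), and their sum was 6580 to 13265 with shScrmbl and 5246 to 9294 with shXbp1; their part in the Apod result was not tested.

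Lyz1 and Lyz2 are near copies that encode lysozyme, which myeloid cells make in bulk, so counts of either are uncertain. Lyz1 had 221, 4116, 506 and 689 with shScrmbl and 68.2, 616, 125 and 305 with shXbp1, and Lyz2 had 120, 3542, 479 and 414 against 85.3, 529, 135 and 252. A single library, shScrmbl replicate 2, held most of the signal. The edgeR differences of -2.29 and -2.19 (adjusted p = 0.0183 and 0.0383) became -0.64 and -0.30 without that library (adjusted p = 0.961 and 0.995). Both calls were also lost without shXbp1 replicate 1 (adjusted p = 0.604 and 0.757) or 3 (0.451 and 0.561), and that of Lyz2 without shXbp1 replicate 4 (0.0995). Medians in microglia were 8040 and 7120, and in monocytes 17961 and 13880.

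The genes that stood next by limma did not pass the adjustment over all genes. Among the 12 higher genes with the smallest unadjusted p, 10 had at least 1 shScrmbl library at 0, and among the 12 lower ones 6 had a shXbp1 library at 0. Rala, a small GTPase of vesicle exocytosis, had 20.1, 16.9, 0 and 0 with shScrmbl and 171, 43.3, 146 and 79.7 with shXbp1 (difference 1.77 ± 0.42 SE, limma adjusted p = 0.480). The groups did not overlap, but the limit of a count of 0 was 79.9 and 82.7 in the libraries at 0. Elavl3, a neuronal RNA-binding protein gene, had 0, 12.7, 0 and 27.6 against 171, 43.3, 135 and 53.1 (1.63 ± 0.42). Nelfb, whose product is part of the negative elongation factor, had 0, 29.5, 0 and 0 against 119, 62.6, 62.5 and 53.1 (1.51 ± 0.40). Nsun2, an RNA methyltransferase gene, and Odf3b were likewise at 0 in 3 shScrmbl libraries, with 21.1 and 8.43 in the other, and lay between 34.1 and 68.2 in every shXbp1 library. The higher group also held the kinase gene Braf (1.42 ± 0.41), Parva, which encodes an actin-binding protein of focal adhesions (1.51 ± 0.43), Nhsl2 (1.37 ± 0.42), and Slc38a1, Slc4a4 and Hspa5, which are given with their lists.

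Of the 12 lower genes, Apoc2 and Apod have been given above. Creb3, which encodes a membrane-anchored transcription factor released by cleavage in the Golgi, had 120, 105, 160 and 165 with shScrmbl and 68.2, 33.7, 10.4 and 26.6 with shXbp1 (-1.43 ± 0.40 SE, limma adjusted p = 0.553). Its groups did not overlap. Elovl5, which elongates polyunsaturated fatty acids, had 40.1, 33.7, 53.3 and 165 against 0, 14.4, 20.8 and 6.64 (-1.22 ± 0.41). Klf4, a transcription factor gene induced early after stimulation, had 120, 127, 160 and 55.2 against 51.2, 57.7, 10.4 and 19.9 (-1.18 ± 0.41), with overlap in 1 library. Rint1, a tethering gene for vesicles that return from the Golgi, had 160, 468, 186 and 165 against 102, 91.4, 83.3 and 86.3 (-1.06 ± 0.38). Its 4 shXbp1 values were close together and all below the shScrmbl values. The others were Timm10b, a mitochondrial import gene (-1.18), Haghl (-1.17), the class II genes H2-DMa (-1.22) and H2-Aa (-1.09), the interferon regulator Irf3 (-1.17) and Chi3l3, a chitinase-like gene of alternatively activated macrophages (-1.52).

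The higher and lower genes differed in how often they appeared in the tables of the other sorted cells. Of the 12 higher genes 1 was in the microglia table and 2 in the monocyte table, and of the 12 lower genes 8 and 10 were, where 45.7% and 52.6% of all tested genes were in these tables. In 6 of the 8 and 9 of the 10, the median signal of the myeloid table exceeded the astrocyte median, as it did for 64.2% and 57.7% of all tested genes in these tables, and for 1 of 1 and 1 of 2 of the higher genes. The 12 higher and 12 lower genes were not matched for signal, to each other or to all genes: 10 and 1 had a shScrmbl library at 0, and 0 and 6 a shXbp1 library. The 3 tables were normalized separately, and the part of signal level or of myeloid RNA was not tested.

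**Figure D3:**
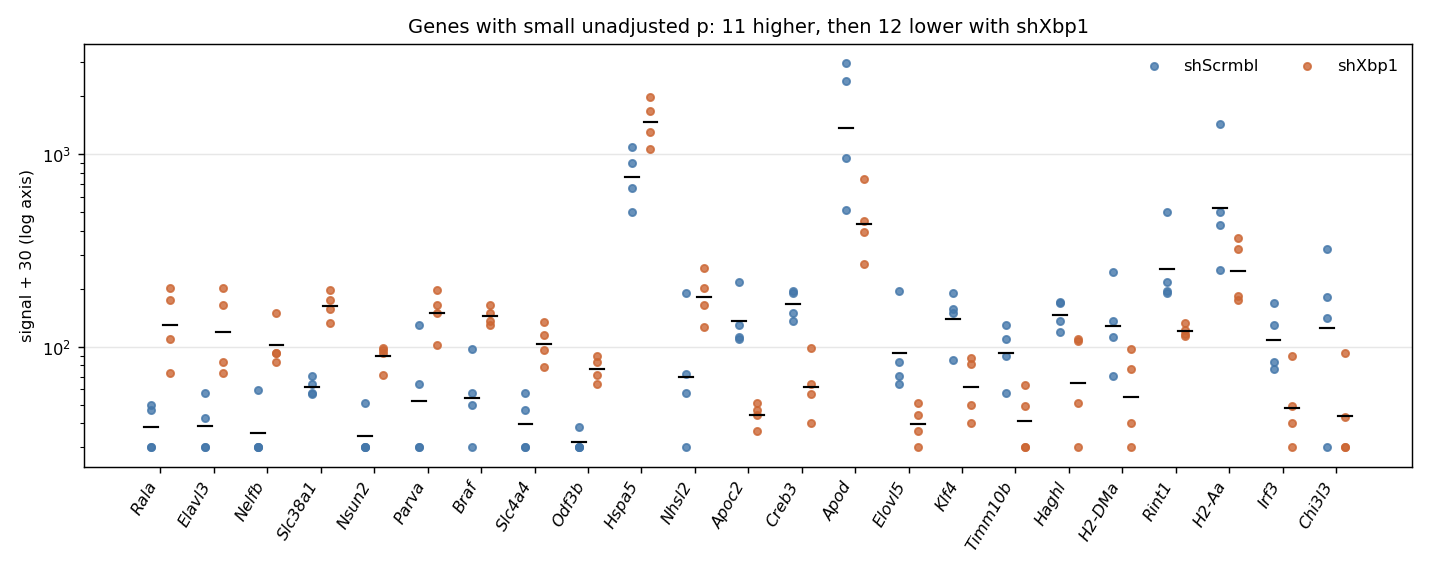
Signal plus 30 on a log axis in the 4 shScrmbl (blue) and 4 shXbp1 (orange) libraries for 11 of the 12 higher and then the 12 lower genes with the smallest unadjusted p by limma, with bars at the mean of the log values. Points at 30 are libraries at 0. Groups do not overlap for Slc38a1, Creb3, Rint1 and Apoc2, and overlap for Hspa5, Apod and H2-Aa.

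Starting with the sensors and factors of the unfolded protein response, the table held 7 of 14 listed genes, with 4 higher and 3 lower by limma (median 0.04). Creb3 was the single member at an unadjusted limma p under 0.05, where 5.94% of all genes were. Neither Ern1, which encodes IRE1, nor the sensor Eif2ak3 was in the table. Atf6, the membrane-held factor that acts beside XBP1, had 0, 46.4, 0 and 0 with shScrmbl and 0, 33.7, 52.0 and 33.2 with shXbp1 (0.57 ± 0.39 SE). D10Wsu52e, now called Rtcb, encodes the ligase that rejoins the cut Xbp1 transcript. It had 120, 202, 107 and 193 against 34.1, 144, 104 and 153 (-0.49 ± 0.39), with overlapping groups.

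The ER chaperones and disulfide isomerases, which fold proteins in the ER, mostly lay higher with shXbp1 without any member passing the adjusted test. The table held 24 of the 34 listed genes, with 18 higher and 6 lower by limma and 17 higher and 7 lower by edgeR. Their median difference was 0.36 by limma and 0.29 by edgeR, against 0.13 and 0.05 for all genes. At an unadjusted p under 0.05 limma had 4 members higher and 0 lower, against 5.11% and 0.833% of all genes. The gap between the list's median and that of all genes was above 0 under all 30 alternatives, from 0.11 to 0.42, and was 0.29 with the myeloid score as covariate. The summed signal was 3585 to 5537 with shScrmbl and 5370 to 7282 with shXbp1, so the groups met at shScrmbl replicate 1.

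Hspa5, the ER Hsp70 known as BiP (chromosome 2, 34771970 to 34777547, plus strand), had 1063, 869, 639 and 469 with shScrmbl and 1944, 1030, 1645 and 1275 with shXbp1. The groups met at shScrmbl replicate 1 and shXbp1 replicate 2. The means were 760 ± 260 and 1473 ± 403 (SD, n = 4 and 4), which is 1.94-fold, and the difference was 0.95 ± 0.29 (SE, limma adjusted p = 0.740), with 0.73 to 1.13 when any 1 library was left out of limma or edgeR. Hsp90b1, the ER form of Hsp90, had 1484, 1096, 666 and 607 against 1620, 1179, 1405 and 1587 (0.65 ± 0.28). Canx, the membrane lectin chaperone calnexin, had 582, 270, 213 and 303 against 921, 404, 552 and 478 (0.76 ± 0.33). Dnajc3, a co-chaperone of BiP, had 140, 118, 373 and 165 against 324, 303, 458 and 259 (0.77 ± 0.35). In each of these 4 genes 1 shScrmbl library reached into the range of the shXbp1 libraries, and that library was replicate 1 for Hspa5, Hsp90b1 and Canx and replicate 3 for Dnajc3. Calr, the soluble lectin chaperone, had 441, 316, 293 and 331 against 682, 294, 500 and 438 (0.40 ± 0.32), and Pdia6 and Creld2 had differences of 0.25 ± 0.37 and -0.25 ± 0.41. The prolyl isomerase gene Fkbp2, abundant in the list, pointed the other way with 461, 586, 453 and 414 against 290, 385, 333 and 465 (-0.36 ± 0.31).

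**Figure D4:**
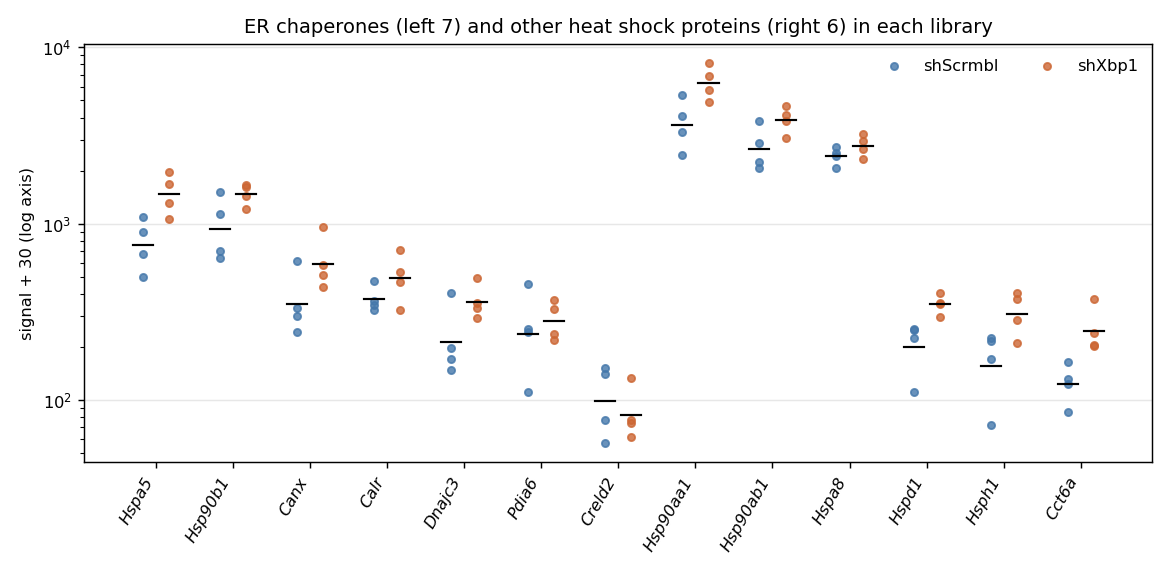
Signal plus 30 on a log axis of 7 ER chaperones (left) and 6 cytosolic or mitochondrial heat shock proteins (right) in 4 shScrmbl (blue) and 4 shXbp1 (orange) libraries, with bars at the mean of the log values. The bars of Hspa5, Hsp90b1, Canx and Dnajc3 differ by 0.65 to 0.95 on the log2 scale with overlapping points, and Hspd1 and Cct6a show no overlap.

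The ER stress response element was looked for in the promoters, since XBP1 and ATF6 can bind there. Windows from 250 bases before to 50 after the start (RefSeq, GRCm38.p6) were found for 5192 of the 6366 genes and searched on both strands for CCAAT, 9 bases of any kind and CCACG. The element was present in 9 genes (0.173%), and in 39 of all 32851 promoter windows (0.119%). A gene counted if any of its windows matched, so these shares have unlike units and do not show enrichment. Of the 9, 7 belonged to the ER chaperone list, and these are shown because they include all 4 chaperone genes with an unadjusted limma p under 0.05, with the element in capitals, 5′ to 3′ on the gene's strand (on the opposite strand it reads CGTGG to ATTGG):
Hspa5 (chr2:34772020-34772048, plus strand): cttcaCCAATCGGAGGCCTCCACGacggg
Hsp90b1 (chr10:86705513-86705676, minus strand): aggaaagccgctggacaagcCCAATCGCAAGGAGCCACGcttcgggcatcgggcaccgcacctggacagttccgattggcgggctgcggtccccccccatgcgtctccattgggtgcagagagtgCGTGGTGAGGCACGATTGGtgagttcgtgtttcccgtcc
Canx (chr11:50325780-50325838, minus strand): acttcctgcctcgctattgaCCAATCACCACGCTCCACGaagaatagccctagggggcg
Dnajc3 (chr14:118937807-118937865, plus strand): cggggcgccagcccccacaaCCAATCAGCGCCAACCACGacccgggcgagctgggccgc
Calr (chr8:84847055-84847113, minus strand): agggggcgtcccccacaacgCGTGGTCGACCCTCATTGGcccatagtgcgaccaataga
Pdia6 (chr12:17266471-17266529, plus strand): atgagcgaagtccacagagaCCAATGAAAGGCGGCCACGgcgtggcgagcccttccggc
Creld2 (chr15:88819500-88819558, plus strand): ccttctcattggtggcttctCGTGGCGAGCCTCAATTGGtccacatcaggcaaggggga

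Those 4 genes are Hspa5, Hsp90b1, Canx and Dnajc3, and Hsp90b1 carried 2 copies of the element on opposite strands. The 7 chaperone genes with it had a median difference of 0.65 (6 higher, 1 lower). The other 17 members of the list, without it or without a window, had 0.26 (12 higher, 5 lower). By edgeR the medians were 0.56 and 0.27. These sets were not matched for signal, and the limma scale shrinks the change of low genes. Over all 9 genes with the element the median was 0.40 by limma and 0.56 by edgeR, against 0.13 and 0.05 for all genes with a window, and the 2 genes outside the chaperone list, Hnrnpa3 and Spats2l, had 0.10 and -0.05 by limma and 0.04 and 0.60 by edgeR. A related element, ATTGG, 1 base and CCACG, was found in 6 genes (0.116%; 0.0365% of all windows), 4 higher and 2 lower, with a median of 0.30 by limma and 0.21 by edgeR. They were the chaperone gene Dnajb11 (0.45 ± 0.41 SE), Herpud1, a gene of ER-associated degradation (0.49), Rbm39 (0.30), Nucb1 (0.29), Lrif1 (-0.18) and Krtcap2 (-0.31). The XBP1 motif TGACGTGG was in 55 genes (1.06%; 0.676% of all windows), 42 higher and 13 lower, with a median of 0.22 by limma and 0.21 by edgeR. Genes with the ATF4 motif TGATGCAA did not show this: 22 of 45 were higher and 23 lower (median -0.02, edgeR -0.23). The shares of genes and of windows again have unlike units, since a gene can have several windows. A match describes letters in a window, and no test was run over these genes.

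The other arms of the secretory pathway are disposal and transport. Of 18 measured genes of ER-associated degradation, which returns misfolded proteins to the cytosol, 14 were higher and 4 lower, with a median of 0.30 by limma and 0.33 by edgeR. No member was at an unadjusted limma p under 0.05, where 5.94% of all genes were. The list's gap to all genes was above 0 under all 30 alternatives (0.07 to 0.31). Sel1l, the adaptor of the degradation ligase, had 20.1, 54.8, 26.6 and 82.7 against 119, 91.4, 83.3 and 66.4 (0.72 ± 0.40 SE). Vcp, the ATPase that pulls proteins from the membrane, had 341, 110, 186 and 138 against 85.3, 192, 260 and 266 (0.06 ± 0.38), so replicate 1 was the highest of one group and the lowest of the other. Of 30 translocon and N-glycosylation genes 20 were higher and 10 lower (median 0.04), and the abundant Sec62 (0.02 ± 0.30) and Sec61g (-0.09 ± 0.30) had near equal levels. The signal recognition particle receptor gene Srpr was not overlapping, with 20.1, 33.7, 0 and 0 against 51.2, 48.1, 52.0 and 39.8 (0.92 ± 0.40). The limits of a count of 0 in its libraries at 0 were 79.9 and 82.7, above all its shXbp1 values. Of 37 ER to Golgi transport genes 20 were higher and 17 lower (median 0.04).

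The ATF4 and CHOP genes, which belong to the PERK arm of the unfolded protein response, were split between higher and lower. Of 17 measured genes 7 were higher and 10 lower (median -0.07 by limma and -0.03 by edgeR), and the gap to all genes was below 0 under all 30 alternatives (-0.43 to -0.02). Mthfd2, a mitochondrial folate enzyme gene, had 0, 84.3, 26.6 and 55.2 against 0, 19.2, 0 and 6.64 (-0.84 ± 0.40 SE), and Gars, the glycyl-tRNA synthetase gene, had 80.2, 42.2, 107 and 27.6 against 136, 135, 83.3 and 120 (0.72 ± 0.39). Both pairs of groups overlapped.

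Chaperones of the cytosol and mitochondria, which are driven by other factors than XBP1, lay higher too. Of 30 measured heat shock proteins 22 were higher and 8 lower by limma and 24 and 6 by edgeR (median 0.20 and 0.24). At an unadjusted limma p under 0.05 there were 9, all higher, where 5.11% of all genes were higher at that level. The summed signal was 16188, 11167, 14166 and 12603 with shScrmbl and 19509, 16809, 19183 and 18140 with shXbp1, without overlap. Hsp90aa1, the inducible cytosolic Hsp90, had 5316, 2408, 4047 and 3282 against 6856, 4856, 8129 and 5710 (0.79 ± 0.25), and Hsp90ab1 had a difference of 0.54 ± 0.25. Cct6a, a subunit of the ring chaperonin that folds actin and tubulin, had 100, 92.8, 133 and 55.2 against 341, 173, 208 and 173 (1.01 ± 0.37) and did not overlap. Hspd1, the mitochondrial Hsp60, had 221, 219, 79.9 and 193 against 375, 265, 323 and 319 (0.82 ± 0.35) and did not overlap, and Hsph1, an Hsp110, had 0.98 ± 0.37. Hspa8, the constitutive Hsp70, had a difference of 0.19 ± 0.24. The direction of the list's gap was not stable: the median lay 0.07 above that of all genes, but 0.01 below it without shScrmbl replicate 2 (0.17 below by edgeR), 0.01 below with the myeloid covariate and 0.11 below with a pseudocount of 1.

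Genes of protein and RNA synthesis were mixed. Of 39 translation factors 25 were higher and 14 lower (median 0.14). Groups did not overlap in 4 higher and 1 lower, against 2.37% and 0.785% of all genes. Eif5, which helps choose the start codon, had 120, 105, 79.9 and 82.7 against 290, 178, 229 and 166 (0.94 ± 0.37 SE), and Eif3d, a subunit of the scaffold complex eIF3, had 120, 105, 160 and 138 against 0, 62.6, 72.9 and 86.3 (-1.07 ± 0.41). Of 45 transcription elongation and splicing factors 32 were higher and 13 lower by limma (median 0.24) and 28 and 17 by edgeR (0.09). The 75 ribosomal protein genes were even, with 35 higher and 40 lower (median -0.01). Rps24 was the ribosomal gene with the smallest p, with 662, 738, 1118 and 883 against 2166, 2079, 812 and 1149 (0.76 ± 0.29), carried by shXbp1 replicates 1 and 2.

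Genes listed as transporters and channels of astrocytes mostly lay higher with shXbp1, and the list does not measure astrocytes alone. Of 25 measured astrocyte transporters and channels 19 were higher and 6 lower by both tools, with a median of 0.39 by limma and 0.81 by edgeR. At an unadjusted limma p under 0.05 there were 7, all higher, where 5.11% of all genes were higher at that level. Groups did not overlap in 4 of the 25, all higher, as in 2.37% of all genes. The summed signal did not overlap either, with 3270, 2290, 3142 and 2758 against 4059, 3701, 4122 and 3619. Slc38a1, a neutral amino acid carrier that takes up glutamine, had 40.1, 33.7, 26.6 and 27.6 with shScrmbl and 102, 144, 167 and 126 with shXbp1 (1.40 ± 0.39, limma adjusted p = 0.553). Slc4a4, the sodium bicarbonate cotransporter, had 0, 16.9, 0 and 27.6 against 85.3, 48.1, 104 and 66.4 (1.40 ± 0.40). The values of both were separate between the groups. For Slc4a4, however, the limits of a count of 0 were 60.2 and 79.9 in the libraries at 0, inside the range of the shXbp1 values.

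Atp1b1, which encodes a subunit of the sodium pump, had 481, 131, 293 and 386 against 512, 500, 489 and 624 (0.79 ± 0.33 SE) without overlap. Slc1a2, the main glutamate transporter of astrocytes, had 241, 59.0, 26.6 and 82.7 against 358, 197, 125 and 146 (0.99 ± 0.41), with shScrmbl replicate 1 inside the shXbp1 range. The list's gap to all genes was above 0 under all 30 alternatives but ranged from 0.08 to 0.79, and it was 0.09 by limma without shScrmbl replicate 2. That library also had the smallest sum of the list. Of the 26 astrocyte markers 22 were higher and 4 lower (median 0.39), with sums of 6921 to 11529 and 8663 to 10606 that overlapped. Neuron markers (6 of 8 higher, median 0.57) and ependymal markers (21 of 25 higher, 0.44) lay higher as well, and their part in these results was not tested. Without shScrmbl replicate 2 the limma gap to all genes went from 0.26 to 0.034 for astrocyte markers, from 0.44 to 0.088 for neuron markers and from 0.31 to 0.050 for ependymal markers.

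Antigen presentation genes lay lower with shXbp1. So did myeloid markers when all 8 libraries were used, and the part of myeloid cells in this was not tested. Of 10 measured genes of class II and its antigen processing, 9 were lower and 1 higher by limma (median -0.42). By edgeR 10 were lower (-1.03), and none passed. The list also holds Ctss, Ctsl and Ifi30, and Ctss is one of the microglia markers too. H2-Aa, which encodes an alpha chain of class II, had 221, 1408, 399 and 469 with shScrmbl and 153, 337, 146 and 292 with shXbp1 (-1.09 ± 0.38 SE, limma adjusted p = 0.740). The shScrmbl replicate 2 was the highest by far, and shScrmbl replicate 1 lay within the shXbp1 range. H2-DMa, which loads peptides, had 40.1, 215, 107 and 82.7 against 0, 67.4, 10.4 and 46.5. Of 15 genes of class I and peptide loading, the latter including Tap1 and proteasome subunits, 11 were lower and 4 higher (median -0.23). B2m, the shared light chain of class I, had 542, 3222, 559 and 910 against 358, 1030, 198 and 631 (-1.01 ± 0.64). The gap of the class II list was -0.55, and it was -0.38 without shScrmbl replicate 2 and -0.41 with the myeloid covariate. Microglia markers had 16 of 25 lower by limma (median -0.06) and 24 of 25 by edgeR (-0.75), and monocyte and macrophage markers 12 of 17 by limma (-0.37) and 15 of 17 by edgeR (-1.47). Without shScrmbl replicate 2 the gap of microglia markers to all genes turned from -0.19 to 0.10 by limma and from -0.80 to 0.22 by edgeR. That of monocyte and macrophage markers went from -0.50 to -0.18 by limma and from -1.52 to -0.12 by edgeR. Class I and II genes have near copies, so single H2 members are uncertain.

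The direction of the NF-kB list turned with the setting. Of 20 genes of NF-kB signalling and proinflammatory mediators, limma had 9 higher and 11 lower (median -0.03) and 3 and 17 by edgeR (-0.58), and the gap to all genes turned from -0.16 to 0.14 without shScrmbl replicate 2 (0.47 by edgeR). Nfkbiz, an NF-kB cofactor gene, had 60.2, 443, 79.9 and 82.7 against 102, 111, 104 and 126, so 3 of 4 shScrmbl libraries lay below all shXbp1 libraries and the other above them. Il1b had 40.1, 384, 53.3 and 82.7 against 239, 255, 41.6 and 46.5. Of 16 reactive astrocyte genes 9 were higher and 7 lower (median 0.05). Cp, the ferroxidase ceruloplasmin, had 0, 16.9, 79.9 and 0 against 68.2, 67.4, 41.6 and 39.8 (0.84 ± 0.42 SE), and Serpina3n, a protease inhibitor gene of reactive astrocytes, had 0, 114, 160 and 138 against 17.1, 43.3, 52.0 and 39.8 (-0.70 ± 0.44). Of 29 interferon response genes 13 were higher and 16 lower (median -0.02), with a gap below 0 in 29 of 30 alternatives. Immediate early genes were lower in 17 of 24 (median -0.14; 20 of 24 by edgeR), with a gap of -0.63 to -0.15 over the 30 alternatives. Complement genes were lower in 8 of 14 (median -0.22), and their gap of -0.35 by limma and -0.62 by edgeR became -0.10 and -0.15 without shScrmbl replicate 2. Its members C1qa, C1qb and C1qc are themselves microglia markers.

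Lipid genes beside Apoc2 and Apod were mixed. Of 19 lipoprotein and lipid transport genes 11 were higher and 8 lower by limma (median 0.15) and 6 and 13 by edgeR (-0.24), so the direction turned with the tool. Apoe, the main apolipoprotein of astrocytes and microglia, had 1685, 4411, 3355 and 3172 with shScrmbl and 1518, 2637, 1135 and 2171 with shXbp1 (-0.74 ± 0.27 SE, limma adjusted p = 0.740). The lipoprotein receptor gene Lrp1 had 20.1, 46.4, 0 and 0 against 102, 48.1, 20.8 and 53.1 (0.92 ± 0.41). Among 26 cholesterol and fatty acid synthesis genes 14 were higher and 12 lower (median 0.05). Ftl1, which encodes ferritin light chain, an iron store, had 4473, 16400, 6391 and 9763 against 3325, 6357, 3123 and 6666 (-0.84 ± 0.33), with the highest value again in shScrmbl replicate 2.

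Of 72 nuclear-encoded oxidative phosphorylation genes 31 were higher and 41 lower (median -0.03, edgeR -0.01). Of 19 glycolysis genes 12 were lower and 7 higher by limma (median -0.10) and 14 and 5 by edgeR (-0.21), with a gap to all genes of -0.53 to -0.07 over the 30 alternatives. The glucose transporter gene Slc2a1 had 0, 12.7, 26.6 and 27.6 against 34.1, 77.0, 52.0 and 46.5 (0.84 ± 0.40 SE), and the phosphofructokinase gene Pfkp had 241, 253, 346 and 221 against 153, 212, 62.5 and 199 (-0.74 ± 0.36). These 2 genes did not overlap between the groups and pointed in opposite directions. For Slc2a1 the limit of a count of 0 was 60.2 in shScrmbl replicate 1, inside the range of its shXbp1 values. Lysosome and autophagy genes were lower in 30 of 46 (median -0.11). Their sum was 30434 in shScrmbl replicate 2, 11982 to 13707 in the rest of that group and 11252 to 16586 with shXbp1, so the groups overlapped outside that library. In the same list, the autophagy receptor gene Sqstm1 lay higher, with 80.2, 59.0, 213 and 55.2 against 188, 212, 135 and 252 (0.90 ± 0.39). Proteasome genes (14 higher, 17 lower of 31, median -0.04) and antioxidant genes (13 and 17 of 30, -0.02) were near even as well.

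**Figure D5:**
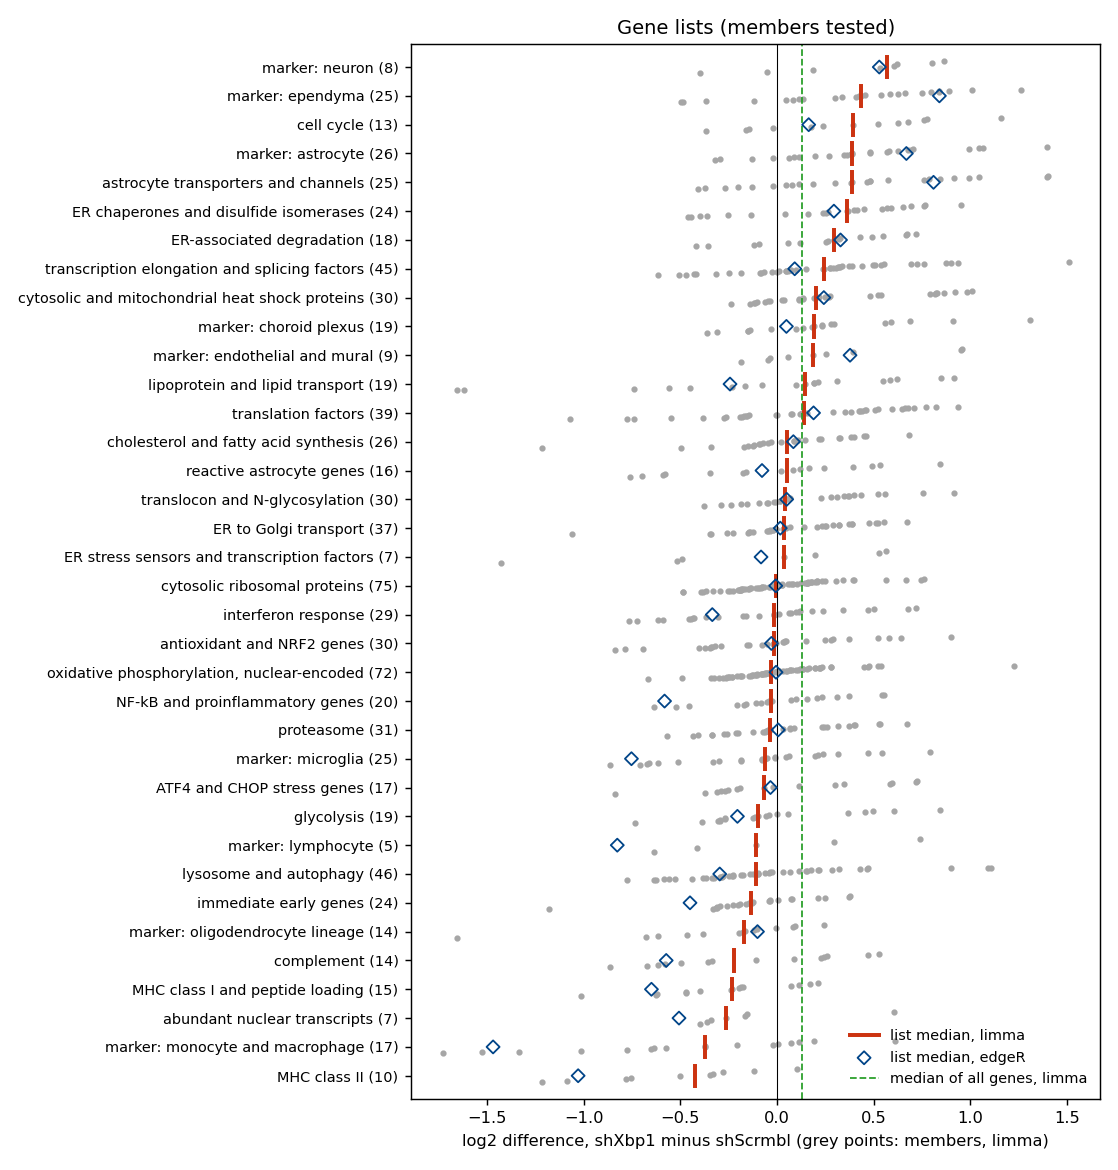
Log2 difference (shXbp1 minus shScrmbl) of the measured members of each list with at least 5 members (grey points, limma), with the list's median by limma (red bar) and by edgeR (open diamond), the number of members in parentheses, and the median of all genes by limma (0.13) as a dashed line. ER chaperones (0.36) and astrocyte transporters (0.39) lie to the right of that line and the MHC class II list (-0.42) to the left by both tools.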

How the data were processed

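Per the labels' protocols, libraries were made by 3′ digital gene expression from RNA of sorted cells. The authors deposited 1 table per cell type whose values are a signal they had normalized. BWA 0.7.10, limma 3.34.1 and the build mm10 appear in the submitters' processing notes without their roles; the counter, annotation and scaling are not given in the sources used here. Dividing each column by its smallest value above 0 gave whole counts for 100% of values (within 0.01 of a count), and it is not given whether these are reads or molecules. Of the gene names 15 had turned into dates and were not named.

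The main test was limma 3.58.1 (empirical Bayes with trend and robust options) on log2(signal + 30), where 30 is near the worth of 1 count in the shallowest library, with Benjamini-Hochberg adjusted p under 0.05 over 6366 genes. edgeR 4.0.16 (quasi-likelihood) and DESeq2 1.42.0 ran on recovered counts under R 4.3.3; tables used Python 3.11.15. Each library was taken as 1 mouse. Lists were described by counts and medians, with no set test. Genes named were Xbp1, the 12 higher and 12 lower with the smallest p, those called, and up to 4 members per list by signal and by p; astrocyte markers in the check of the label and Herpud1, Hnrnpa3, Spats2l and the other genes named for a motif were chosen after their values were seen. A few genes that this rule names are not reported here. Members, lists and motifs were chosen with earlier results of these data known. Positions are from GENCODE M21 (GRCm38) and promoters from RefSeq (GRCm38.p6). In 5 simulations on 6333 genes limma recovered 43.8% of 4-fold and 72.6% of 8-fold changes, and edgeR 50.1% and 78.6%. False calls over these simulations were 33 by limma and 29 by edgeR. Genes were drawn independently, without a library whose composition is shifted like shScrmbl replicate 2, so these rates need not hold for the real libraries.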

Additional observations from a re-analysis of the deposited data

Results flagged for a closer look

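In 54 groups of 4 libraries, for the 26 ranked or called genes and Xbp1, 8 held a library that stood apart by Dixon's test at the 95% level. Chance gives this in about 1 of 20 groups, a rate that does not apply to genes picked for their small p. In 6 genes that library was shScrmbl replicate 2, the deepest of the 8. Nelfb was 29.5 there with the others at 0, Nsun2 21.1 with the others at 0, Odf3b 8.43 with the others at 0, Lyz1 4116 against 221 to 689, and Lyz2 3542 against 120 to 479. With 3 libraries at 0 the test's ratio is fixed at 1, and 29.5, 21.1 and 8.43 lie under the limits of 60.2, 79.9 and 82.7 that a count of 0 sets in those libraries, so for these 3 genes the test says nothing. Rint1 in that library was 468 against 160 to 186. Elovl5 was 165 in shScrmbl replicate 4 against 33.7 to 53.3 in the others. In the shXbp1 group, Nelfb was 119 in replicate 1 against 53.1 to 62.6.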

How the results depend on the processing

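The count of called genes was 0 by limma and stayed 0 with pseudocounts of 1, 10 or 100, without the filter, with a mean signal of at least 50, with total count scaling with or without Ttr, with the myeloid covariate, and by DESeq2. It was 2 after quantile normalization, 4 by edgeR and 1 by edgeR with robust dispersions. With the replicate number as a block it was 4 by limma (Apod, Lyz1, Prlr and Rala) and 3 by edgeR (Apod, Lyz1 and Lyz2). Correlations of deviations were -0.045, 0.026, 0.054 and 0.055 for libraries with the same number and -0.142 to 0.082 for the others. Counting error is large in the shallow libraries, so these values cannot show whether the numbers pair the libraries. Leaving out 1 library gave 0 to 5 by limma, with 5 without shScrmbl replicate 1, and 0 to 15 by edgeR: 15 without shScrmbl replicate 1, 10 without shXbp1 replicate 2, and 0 without shXbp1 replicate 1 or 3. The Xbp1 difference of 0.04 turned to -0.13 by DESeq2, -0.083 by edgeR, -0.083 by edgeR with robust dispersions, -0.043 after quantile normalization and -0.10 with the replicate block in edgeR, and ranged from -0.16 to 0.22 by limma and from -0.43 to 0.35 by edgeR when 1 library was left out. The other values below 0 among these were -0.29, -0.015 and -0.24 by edgeR without shScrmbl replicate 1, 3 or 4, -0.10 by edgeR without shXbp1 replicate 2, and -0.092 and -0.13 by limma without shScrmbl replicate 4 or shXbp1 replicate 4. No adjusted p of Xbp1 was under 0.91, and a mean signal of at least 50 left it out. The cause of these changes was not tested. Of the other single-gene values 736 kept their direction and side of the threshold and 38 passed it under an alternative, with no reversal, and of list and motif medians 969 moved by less than the spread of their main value and 142 by more. A count of 0 set a limit of 12.7 to 82.7 in signal.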

Other observations

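The shXbp1 libraries fell into 2 pairs in 3 lists. Oxidative phosphorylation genes summed to 35165 and 36837 in replicates 1 and 3 and to 52324 and 55350 in replicates 2 and 4, glycolysis genes to 6190 and 6224 against 10592 and 11507, and choroid plexus markers to 179970 and 151760 against 277320 and 259380. Replicates 2 and 4 were also the deeper ones (221367 and 159189 counts, against 53228 and 85398). ER chaperones summed to 7282 and 6245 in replicates 1 and 3 and to 5370 and 5943 in replicates 2 and 4. Correlations of log2 signal between replicates were 0.679 to 0.712 with shScrmbl and 0.792 to 0.901 with shXbp1, where 3 of the shScrmbl libraries held only 32842 to 50392 counts. The chi-square per gene, which allows for counting error, overlapped: 1.15 to 3.80 with shScrmbl and 1.28 to 2.87 with shXbp1. It also rises with depth where libraries differ, so this overlap does not show that the groups had equal spread.

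Prlr and Ccnd2 were high in 1 of the 4 shScrmbl libraries. Prlr, the prolactin receptor gene that the choroid plexus expresses, had 1665, 506, 186 and 276 with shScrmbl and 1381, 861, 1416 and 1208 with shXbp1 (1.31 ± 0.49 SE, limma adjusted p = 0.740), and Ccnd2, a cyclin gene, had 1083, 287, 133 and 276 against 904, 505, 1301 and 624 (1.16 ± 0.43). Replicate 1 of shScrmbl was high in both, and without it limma called both. Enpp2, another gene of the choroid plexus, had 35045, 23805, 12488 and 11748 against 21402, 23744, 19256 and 27170, and the Ttr difference pointed down (log2 difference -0.36 ± 0.22 SE).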
